A study of Rattus norvegicus with 16 samples.

Results

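The 7 inflammatory genes described here were followed in RNAseq libraries from 16 rat hearts: the chemokines Cxcl1, Cxcl2 and Ccl2, the cytokines Il6 and Il1b, and the adhesion molecules Vcam1 and Icam1. They are 7 of the 32545 genes in the count table, listed there as ENSRNOG00000002802 (Cxcl1), ENSRNOG00000002792 (Cxcl2), ENSRNOG00000007159 (Ccl2), ENSRNOG00000010278 (Il6), ENSRNOG00000004649 (Il1b), ENSRNOG00000014333 (Vcam1) and ENSRNOG00000020679 (Icam1). The genes were picked by their known roles and on the DOX high against saline values of these same libraries, so their fold changes, calls and counts are given as a description, and the adjusted p-values place them in a fit of all genes without being independent support.

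The hearts came from male Wistar rats, 6 to 8 weeks old when treatment began, of which 10 were saline controls and 6 were given the anthracycline doxorubicin at 3 mg per kg once a week, 5 times (DOX high; cumulative dose 15 mg per kg). All injections were intravenous. The sample labels give 5 weekly saline injections for the controls, whereas the methods give 6. Hearts were collected at week 6, each library is 1 rat, and the part of the heart that was extracted is not given in the sources used here. The study randomized whole cages to treatment. Which rats shared a cage is not given, and the tests below treat the rats as independent. Libraries held between 13784896 and 18025615 counts.

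Chemokines are small secreted proteins that draw leukocytes along a gradient and out of the blood. Cxcl1 and Cxcl2 mainly attract neutrophils, and Ccl2 mainly attracts monocytes. Il1b and Il6 are secreted by activated macrophages and by other cells, and Il1b induces chemokines and adhesion molecules in endothelium through the transcription factor NF-kappaB. Vcam1 and Icam1 are surface proteins on activated endothelium to which leukocyte integrins bind, and they have been studied widely in injured and failing hearts.

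Because these genes are textbook targets of NF-kappaB, the bases just upstream of their annotated starts are shown for the 4 whose window holds the kappaB consensus. RefSeq promoter sequences (build GRCr8) were matched by symbol for 6 of the 7 genes, all but Ccl2. Each line runs 5′ to 3′ on the strand of the gene and covers the 120 bases that end 1 base before the start, and capitals mark the kappaB consensus, found on either strand and merged where matches overlap. Cxcl1 lies at chr14:17479322-17479441 and Cxcl2 at chr14:17467256-17467375, Il6 at chr4:5894576-5894695 and Vcam1 at chr2:206742784-206742903, all on the minus strand.
Cxcl1: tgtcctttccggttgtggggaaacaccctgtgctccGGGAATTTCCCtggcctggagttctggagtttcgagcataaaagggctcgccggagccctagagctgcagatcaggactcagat
Cxcl2: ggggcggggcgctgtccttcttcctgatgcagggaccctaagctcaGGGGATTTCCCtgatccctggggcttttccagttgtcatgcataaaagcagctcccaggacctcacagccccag
Il6: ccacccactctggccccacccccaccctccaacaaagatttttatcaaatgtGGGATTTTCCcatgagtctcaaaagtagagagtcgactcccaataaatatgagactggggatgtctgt
Vcam1: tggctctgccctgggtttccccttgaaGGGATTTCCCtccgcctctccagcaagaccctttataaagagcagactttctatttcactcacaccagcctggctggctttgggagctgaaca

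The consensus was found in the 250 bases upstream of 4 of the 6 matched genes, and in 6.33% of the 33469 promoter windows of the same length in the table. In all 4 it lay within the 120 bases printed, its first base being 84 bases before the start in Cxcl1, 74 in Cxcl2, 68 in Il6 and 93 in Vcam1. No kappaB consensus was present in the 250-base windows of Il1b and Icam1. The search took only exact matches to GGGRNNYYCC (R is A or G, Y is C or T, N is any base). Sites with other letters or farther from the start were not searched. TATAAA, the TATA box, was searched on both strands and stood in the windows of Il1b, Vcam1 and Icam1 (12.9% of all windows), with overlapping matches on both strands in Vcam1. TGANTCA, the AP-1 motif, stood in none of the 6 windows (6.34% of all windows). A match is a run of letters in the reference and was not measured as a bound site.

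Saline rat 37 and DOX high rat 32 stood out in their correlations with the other libraries. Saline rat 37 correlated more closely with the DOX high libraries (median Pearson r across tested genes 0.973) than with the other saline libraries (0.946), whereas each of the other 9 saline libraries had its higher median with saline. Saline rats 6, 10 and 36 also had low medians with saline (0.946, 0.942 and 0.951), against 0.971 or more in the remaining saline rats. DOX high rat 32 had the lowest median correlation with the DOX high libraries (0.918, against 0.971 or more in the other DOX high rats) and a TMM scaling factor of 1.362, where the other 15 libraries had 0.885 to 1.2. Rats 37 and 32 were kept in their labelled groups, and values without them are given where they matter. Levels below are given as CPM, counts scaled to library size and by the TMM factor.

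DOX high hearts had more transcript of the chemokines Cxcl1 (8.61-fold) and Ccl2 (3.23-fold), the cytokine Il1b (4.03-fold) and the adhesion molecule Icam1 (4.48-fold). The last 2 folds were 2.59 for Il1b, no longer called (edgeR adjusted p = 0.0542), and 2.29 for Icam1 without DOX high rat 32. Of the 7 genes, 5 passed the filter on low counts and 4 of these were called higher in DOX high hearts (Cxcl1, Ccl2, Il1b and Icam1), none lower. Cxcl1 and Il1b passed only with the help of DOX high libraries. Of their saline libraries 1 and 4 reached the filter's minimum, where 6 were needed. All 4 calls were lost when animal numbers were taken into account. For these genes the edgeR adjusted p-values were 0.134 to 0.302 within rats 30 to 39 alone. They were 0.0841 to 0.234 with the number block (rats 5 to 10 or 30 to 39) as a covariate. Over all genes, the first of these fits called 0 of 13730 and the second 2 of 13607. The loss was therefore not particular to these 4 genes. In the fit of all rats without a covariate, 6.25% of the 13607 genes tested were called in either direction and 4.01% higher. The test was the quasi-likelihood test in edgeR, with genes called at an adjusted p under 0.05. Vcam1 was tested but not called (edgeR adjusted p = 0.102), and Cxcl2 and Il6 were too low to test. Every DOX high rat lay above every saline rat in 1 member, Ccl2, a pattern seen in 0.595% of the tested genes.

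**Figure D1:**
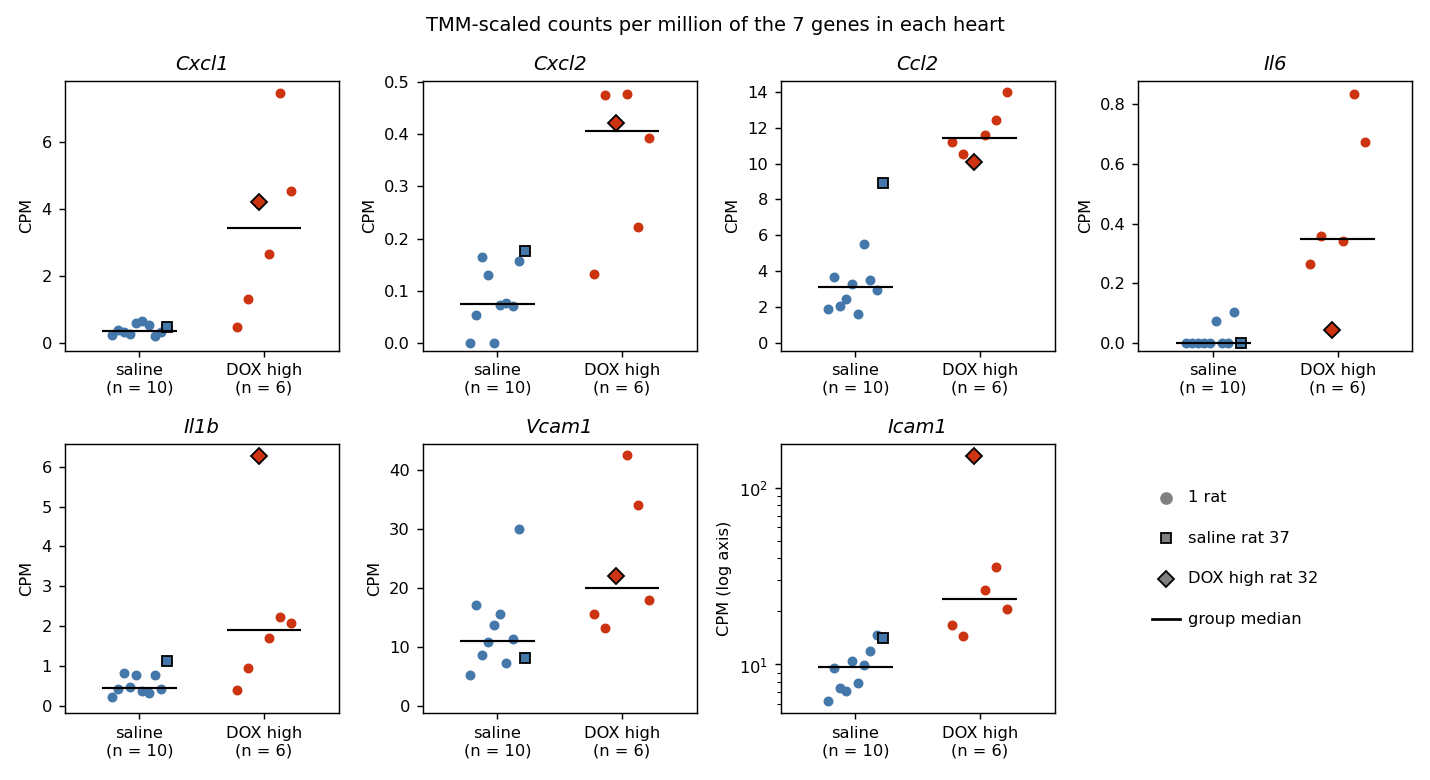
TMM-scaled CPM (y axis, linear except for Icam1, which has a log axis) of each gene in each heart, with saline and DOX high rats side by side, 1 point per rat and a line at the group median. Ccl2 separates the groups fully, with saline rat 37 at 8.94 CPM just under the lowest DOX high rat at 10.1, and rat 32 carries the highest Icam1 (152.7 CPM) and Il1b (6.28 CPM).

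Cxcl1 showed the largest fold change of the tested members. Saline hearts had 3 to 9 counts each, between 0.210 and 0.658 CPM with a median of 0.349. The DOX high hearts read 0.464 CPM in rat 30, 1.31 in rat 31, 2.67 in rat 33, 4.21 in rat 32, 4.55 in rat 39 and 7.47 in rat 38. Of the DOX high rats 5 exceeded every saline rat, while rat 30 fell inside the saline range, and the group spread widened from 0.397 ± 0.161 CPM (SD, n = 10) to 3.45 ± 2.53 CPM (SD, n = 6). On the log2 scale the difference was 3.11 ± 0.43 (SE; edgeR adjusted p = 0.00201), which placed Cxcl1 at rank 22 of the 13607 tested genes by log2 fold change. Cxcl1 met the filter narrowly: 6 libraries had to reach 0.623 CPM before TMM scaling, and those that did were 5 DOX high rats and saline rat 10, so that it was not tested when rat 10 was left out.

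Ccl2 was the most uniform of the members in DOX high hearts. Saline values ran from 1.61 to 8.94 CPM with a median of 3.09; the highest was that of rat 37, since the next saline rat had 5.53 CPM. DOX high values ran from 10.1 to 13.99 CPM with a median of 11.4. The groups did not overlap, and the SD was 12.1% of the mean in DOX high rats against 61.1% in saline rats (40.0% without rat 37). Ccl2 differed by 1.69 ± 0.29 on the log2 scale (SE, edgeR adjusted p = 0.00625). Without saline rat 37 it differed by 1.96 ± 0.21 (SE, edgeR adjusted p = 4.07e-05). That rat was singled out for its likeness to the DOX high libraries and held the highest saline Ccl2. Leaving it out therefore widens the difference by construction and adds no support, and 1762 of 13530 genes were called in that fit. In the deposited TPM values the groups were also apart, with a saline maximum of 15.9 TPM and a DOX high minimum of 16.2 TPM.

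Cxcl2, the close relative of Cxcl1, was too low to test. Its 10 saline libraries held 14 counts in all, with 0 to 3 in each, and its 6 DOX high libraries held 38, with 2 in rat 30, 4 in rat 38, 7 in rats 33 and 39, 8 in rat 31 and 10 in rat 32. In 5 of 6 DOX high rats the level lay above the highest saline rat (0.176 CPM in rat 37). Pooled over rats the ratio was 3.84 (95% exact interval 2.03 to 7.67, which covers counting error only). Cxcl1 and Cxcl2 resemble each other in sequence, and fragments that aligned to both would not be counted under the default settings stated for the counting, so the values of this pair are uncertain.

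Il6 was the least abundant member in saline hearts, where 8 of 10 libraries held no Il6 count, rat 10 held 1 and rat 36 held 2, and a count of 0 allows at most 0.159 to 0.246 CPM in those libraries. Every DOX high library held at least 1 count: rat 32 had 1, rat 30 had 4, rat 33 had 5, rat 31 had 6, rat 39 had 12 and rat 38 had 15. The pooled counts were 3 in saline and 43 in DOX high hearts, a ratio of 20.3 with a 95% exact interval of 6.48 to 102 that covers counting error only. Rats 38 and 39 were the highest and rat 32, at 0.0421 CPM, was lower than saline rats 10 and 36. In a fit without the filter, adjusted p was 0.0125 for Il6 and 0.047 for Cxcl2, and 2.65% of the 23582 genes in that fit were called higher (edgeR test).

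Il1b, the other cytokine, was low and uneven. The filter's minimum of 0.623 CPM before TMM scaling was reached in 4 saline and 5 DOX high libraries, where 6 were needed. Saline hearts had 3 to 19 counts, 0.221 to 1.12 CPM with a median of 0.439 and the highest value in rat 37. Among DOX high hearts, rat 30 had 0.398 CPM, under the saline median, and rat 31 had 0.952 CPM, within the saline range. Rats 33, 39 and 38 had 1.71, 2.08 and 2.23 CPM, and rat 32 had 6.28 CPM (149 counts), which is 3.67 times the median of the other DOX high rats. The fitted difference was 2.01 ± 0.45 on the log2 scale (SE; edgeR adjusted p = 0.0205). Without rat 32 it was 1.37 ± 0.39 (SE) and the edgeR adjusted p was 0.0542, so the call was lost when that library alone was left out. With saline rat 37 left out as well the difference was 1.55 and Il1b was called (edgeR adjusted p = 0.0129). This removes the saline rat with the highest Il1b. In that fit 1766 of 13572 genes were called, against 609 of 13647 without rat 32 alone.

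Icam1, the endothelial ligand of leukocyte beta-2 integrins, was measured with at least 84 counts in every heart. Saline hearts ranged from 6.19 to 14.7 CPM with a median of 9.72. Those of 5 DOX high hearts lay between 14.5 CPM (rat 31) and 35.6 CPM (rat 38), and the remaining one, rat 32, had 152.7 CPM from 3625 counts. Rat 31 alone fell inside the saline range on the CPM scale. In the deposited TPM values rats 30 (7.654) and 31 (7.215) both lay below the highest saline rat (9.22 in rat 36). The group means were 9.91 ± 2.94 CPM (SD, n = 10) and 44.4 ± 53.6 CPM (SD, n = 6), and the second became 22.8 ± 8.46 CPM (SD, n = 5) without rat 32. In the fit Icam1 differed by 2.16 ± 0.43 (log2, SE; edgeR adjusted p = 0.011) with all rats and by 1.19 ± 0.23 (log2, SE; edgeR adjusted p = 0.0128) without rat 32, which is a 4.48-fold difference against a 2.29-fold difference.

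Vcam1, which binds the integrins of monocytes and lymphocytes, did not pass the threshold. Its saline values ran from 5.16 to 30.0 CPM with a median of 11.03, and its DOX high values from 13.3 to 42.6 CPM with a median of 19.97. All 6 DOX high rats lay above the saline median but only rats 33 and 38 lay above the highest saline rat, rat 36. In the deposited TPM values only rat 33 (13.41) lay above rat 36 (12.42), and rat 38 had 11.08. The estimate was 0.92 ± 0.33 on the log2 scale (SE; edgeR adjusted p = 0.102). The next saline value after rat 36 was 17.1 CPM. Without rat 36 the estimate was 1.16 ± 0.29 (SE) with an edgeR adjusted p of 0.0381, in a fit that called 524 of 13515 genes. Leaving out the highest saline rat raises the estimate by construction. Vcam1 stayed uncalled in 26 of the 27 alternative fits.

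**Figure D2:**
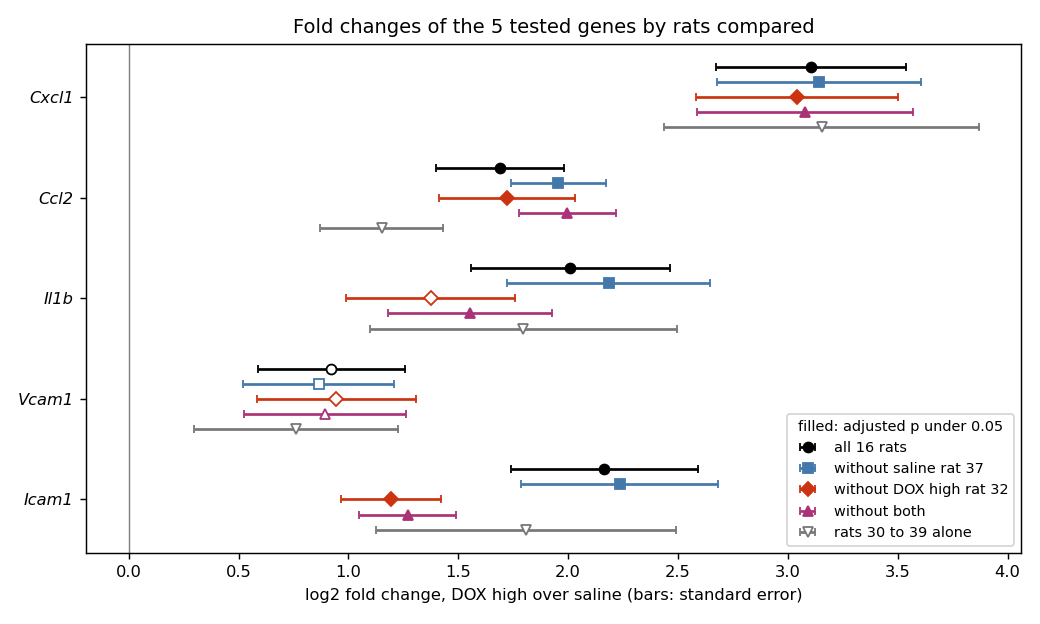
Log2 fold change of DOX high over saline (x axis; bars are standard errors from edgeR) for the 5 tested genes, each with all 16 rats, without saline rat 37, without DOX high rat 32, without both and within rats 30 to 39 alone, filled where adjusted p was under 0.05. Every estimate is above 0, Icam1 drops from 2.16 to 1.19 without rat 32, and no gene is filled within rats 30 to 39.

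The animals were numbered, and rats 5 to 10 were all saline-treated while rats 30 to 39 held 4 saline and all 6 DOX high rats. Within rats 30 to 39 none of the 5 tested members was called, and the log2 fold changes were 3.15 for Cxcl1, 1.15 for Ccl2, 1.80 for Il1b, 0.76 for Vcam1 and 1.81 for Icam1. Their adjusted p-values were between 0.134 and 0.482, and 0% of the 13730 genes tested in that fit were called (edgeR test; 1891 had an unadjusted p under 0.05). Saline rat 37 was left out of the same fit in a step added after seeing the data. Ccl2 was then called (log2 fold change 1.55, edgeR adjusted p = 0.0108) and Cxcl1 was not (3.29, edgeR adjusted p = 0.0849). Rat 37 held the highest saline Ccl2, and 307 of 13946 genes were called in that fit.

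Levels per gene length can be compared between members with the deposited TPM values. In saline hearts the order of medians was Ccl2 (5.05 TPM), Icam1 (4.58), Vcam1 (3.47), Cxcl1 (0.629), Il1b (0.530), Cxcl2 (0.0896) and Il6 (0). The first 3 were not separated, as Ccl2 exceeded Icam1 in 4 of 10 rats and Icam1 exceeded Vcam1 in 7 of 10, and Cxcl1 exceeded Il1b in 6 of 10. Vcam1 exceeded Cxcl1 in all 10 saline rats with no overlap of the values. In DOX high hearts the median order was Ccl2 (18.4 TPM), Icam1 (11.7), Vcam1 (8.38), Cxcl1 (5.21), Il1b (1.80), Cxcl2 (0.535) and Il6 (0.430). Ccl2 exceeded Vcam1 in every DOX high rat, Cxcl1 exceeded Il1b in 6 of 6, and the lowest pair was not separated, with Cxcl2 above Il6 in 3 of 6.

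The DOX high hearts did not move as 1 block. Rats 30 and 31 held the lowest 2 values of Cxcl1, Il1b, Vcam1 and Icam1 among DOX high rats, yet their Ccl2 was 3.62 and 3.41 times the saline median, close to the other hearts. Rat 38 was first or second in all 5 tested members and first in Il6. Rat 32 combined the highest Il1b and Icam1, at 14.3 and 15.7 times the saline median, with the lowest Il6 and, on the CPM scale, the lowest Ccl2. That last place depends on scaling, since its Ccl2 was the highest of the DOX high rats in TPM (23.3). Saline rat 37 had the highest Ccl2, Cxcl2 and Il1b and the second highest Icam1 of the saline rats, but its Vcam1 was below the saline median (0.736 times) and it held no Il6 count.

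**Figure D3:**
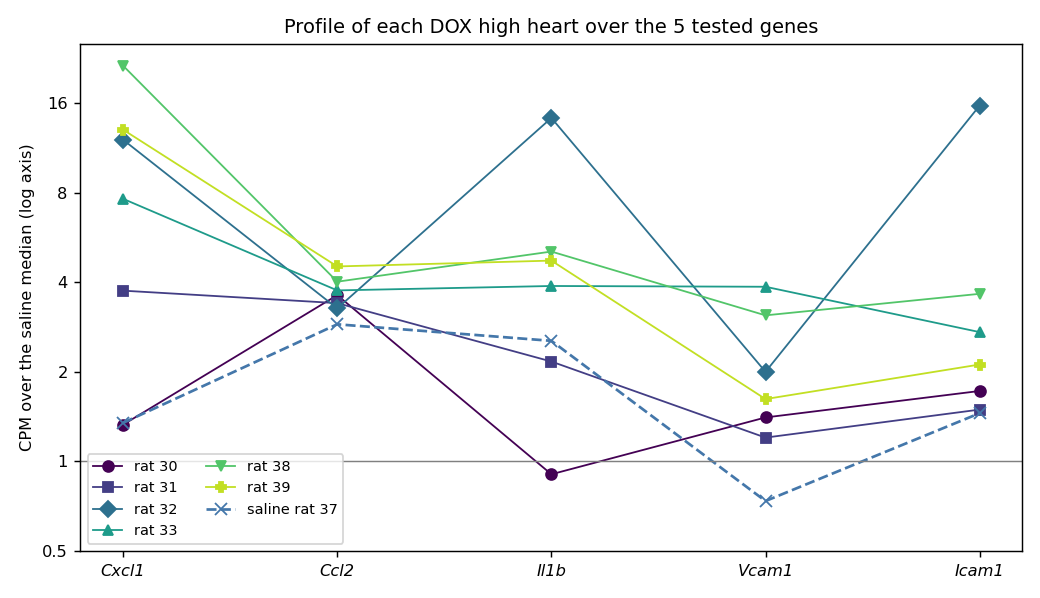
CPM of each DOX high heart, and of saline rat 37, divided by the saline median (y axis, log scale) for the 5 tested genes, 1 line per rat. The lines meet at Ccl2 (3.27 to 4.52 times the saline median in DOX high hearts) and spread at Cxcl1 (1.33 to 21.4 times), Il1b (0.905 to 14.3 times) and Icam1 (1.49 to 15.7 times).

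Whether members varied together from rat to rat was examined within each group on log2 CPM, in 20 relations (10 pairs of the 5 tested genes in each group). The strongest was that of Il1b and Icam1 in the 6 DOX high rats, with Pearson r of 0.866 (exact permutation p = 0.0306) and Spearman rho of 0.886 (exact permutation p = 0.0333). Adjusted over the 20 relations these became 0.222 and 0.389 (exact permutation test, two-sided), so the relation did not pass, and r was 0.824 without the 2 rats farthest from the median of Il1b, which leaves 4 rats. Cxcl1 and Il1b in the same 6 rats had r = 0.821 (exact permutation p = 0.0333, adjusted p = 0.222). Without the 2 rats farthest from the median of Cxcl1, r was 0.104, but the 4 rats left are too few to judge the relation. In the 10 saline rats the closest pair was Ccl2 and Icam1 (r = 0.697, rho = 0.636, permutation p = 0.0253 and 0.0563, adjusted p = 0.222 and 0.389), with r = 0.575 without the 2 farthest rats. No relation passed the adjusted threshold in either group. Over all 16 rats, where the group difference enters, the tested genes with the values most like those of Icam1 were ENSRNOG00000003809 (Spearman 0.947) and ENSRNOG00000031163 (0.938), which the files do not pair with names.

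In tissue RNA, more cells of a type and more RNA per cell cannot be told apart. The files list genes by identifier only, and 0 of the 32545 identifiers were found in the reference gene table, so markers of leukocytes, endothelium and cardiomyocytes, and the receptors and pathway partners of the 7 genes, were not examined here, and the heart label was not checked against its markers.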

How the data were processed

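RNA of heart tissue (poly(A)-selected, strand-specific libraries) was aligned by the authors to Rnor_6.0 with Hisat2, and read counts on Ensembl exons were made with featureCounts (Subread 1.5.0, default parameters, which do not use strand, so that overlapping antisense genes are not told apart). The deposited counts are whole numbers per gene without normalization. The deposited TPM values were made from these counts by the authors, per gene length and scaled to the same total in each library.

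Groups came from the sample labels. No library repeated another of its group: over 60 pairs the chi-square divided by its degrees of freedom was at least 13.5. All genes were fitted with edgeR 4.0.16 in R 4.3.3 (filterByExpr, TMM, quasi-likelihood test, no covariates, Benjamini-Hochberg adjustment over all genes tested, called under 0.05). Standard errors (SE) are the absolute log2 difference over the root of its F statistic. The fit was checked on simulated counts. Alternatives were DESeq2 1.42.0, limma 3.58.1 on log2 TPM, other scalings and filters, and other sets of rats. Correlations used permutation tests in scipy 1.17.1, exact for 6 rats and with resampling for 10. The 2 genes most like a member were to be named by symbol, or, without symbols, only for the member with the highest mean CPM. The 7 members, the lists and the tests were chosen with earlier results of these data known. The 6 pathway lists and 9 marker lists were set by symbol and could not be matched.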

Additional observations from a re-analysis of the deposited data

Results flagged for a closer look

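In 3 of the 14 groups of values (7 genes in each of 2 groups) a rat lay far from the others by Dixon's ratio on CPM. The rate of about 1 flag in 20 groups by chance holds for normally distributed values, which was not tested for CPM. The ratio was not computed on the log scale, so the number of flags cannot be set against chance. The flags for Icam1 and Il1b were in the same rat. Icam1 in DOX high rat 32 was at 152.7 CPM, with the next DOX high rat at 35.6 CPM. Il1b in the same rat was at 6.28 CPM, with the next at 2.23 CPM. Vcam1 in saline rat 36 was at 30.0 CPM, with the next saline rat at 17.1 CPM. Icam1 (9.22 TPM) was also highest in rat 36 among saline rats. The cause of these values was not tested.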

How the results depend on the processing

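The 5 tested members had positive log2 fold changes in each alternative fit that tested them, from 1.72 to 3.33 for Cxcl1, 1.15 to 2.00 for Ccl2, 0.93 to 2.22 for Il1b, 0.57 to 1.16 for Vcam1 and 1.19 to 2.34 for Icam1. The 4 members called with all rats became 2 with at least 10 counts in every library (which leaves 3 members in the fit), 2 (Cxcl1 and Ccl2) in limma fits of TPM with a pseudocount of 1 and again 2, the same genes, with 0.1, and 0 within rats 30 to 39 alone and with the animal number block as a covariate. Without saline rat 37, both chosen after seeing the data, these last fits called 1 member (Ccl2) and 2 members (Cxcl1 and Ccl2). DESeq2 and the fit without a filter called 6, all but Vcam1. These include Cxcl2 and Il6, which were too low for the filter of the main fit. Over all genes, 854 of 23582 were called without a filter and 808 of 11953 with at least 10 counts in every library. DESeq2 gave no adjusted p to 7108 of its 22801 genes. Leaving out each rat gave 3 to 5 members: 3 without saline rat 10 (Cxcl1 not tested) or DOX high rat 32 (Il1b lost), and 5 without saline rat 36 (Vcam1 gained). The 851 genes called among all genes became 1578 with DESeq2 (52.7% higher in DOX high, against 64.2%), 255 and 285 in those limma fits (73.3% and 72.3% higher), 0 within rats 30 to 39, 2 with the number block, 307 and 347 in these last fits without rat 37, 1766 without rats 37 and 32 together, and 345 to 1762 leaving out each rat, lowest without DOX high rat 38 and highest without saline rat 37. The cause of these changes was not tested. The fit with the number block and both limma fits tested 13607 genes, as the main fit did. The counts of Cxcl2 and Il6 (at most 15 per library) limit both genes. No paired analysis was possible because saline and DOX high rats carry different numbers.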
